A study of Mus musculus with 6 samples.

Results

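The expression of 10 genes of chondrocyte hypertrophy and mineralization was followed by RNA-seq in mouse primary articular chondrocytes, the resident cells of joint cartilage. The genes were chosen by name, with earlier results of these data known, from the table of 17189 genes with values. They were Sp7, Col10a1, Panx3, Alpl, Phospho1, Enpp1, Ibsp, Spp1, Mgp and Bglap, and all 10 had values in every library. The cells were wild type in each of 3 groups of 2 libraries: control, a condition the labels call aging SNL, and aging SNL with spesolimab, a monoclonal antibody against the receptor of IL-36 cytokines. The labels do not expand SNL, give no age, dose or time, and do not state whether the libraries of a group are separate animals or cultures. The p-values therefore cover the spread among these 6 libraries alone, and that spread may be technical. The title of the series names aged skin, IL-36 receptor signalling and experimental osteoarthritis as its subject.

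Hypertrophy is the last stage of the growth plate chondrocyte, in which the cell enlarges, makes collagen X and mineralizes the matrix around it. Mineral forms when phosphate outweighs pyrophosphate, a small molecule that blocks crystal growth: Enpp1 makes pyrophosphate from ATP outside the cell, Alpl breaks it down to phosphate, and Phospho1 frees phosphate inside matrix vesicles. Matrix proteins then start the crystals (Ibsp) or hold them back (Mgp). Articular chondrocytes normally stay short of this stage, and entry into it is a known feature of osteoarthritic cartilage.

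Libraries held between 16566791 and 17312833 counts. On the first principal component (53.8% of the variance) aging SNL replicate 1 lay at 67.9 and the other 5 libraries at -18.8 to -6.46. The 10 defining markers of articular chondrocytes were above 0 in all 6 libraries, and their summed level was 5019 TPM in aging SNL replicate 1 and 28097 to 32098 TPM in the others. Results that rest on this library are therefore given with and without it. TPM (transcript abundance scaled for gene length and library) is used to compare genes with each other. CPM (counts scaled to the TMM-adjusted library size) is used to compare libraries for 1 gene. In these bulk libraries, fewer cells of a type and less RNA per cell cannot be told apart.

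The sequence upstream of the start site is shown for 4 members whose aging SNL and control libraries did not overlap: Alpl and Ibsp, which were lower, and Enpp1 and Spp1, which were higher. Each is the 250 bases before the most upstream start site listed by RefSeq for GRCm38.p6, the older mouse build, not the GRCm39 named in the submitters' processing notes, and is written 5′ to 3′ on the gene's strand. Capitals mark matches, on either strand, to ACCACA (the core bound by RUNX factors), TAATTA (homeodomain factors), TGANTCA (AP-1) or GGGCGG (the GC box of SP factors, the family of Sp7).
Alpl (chr4:137796385-137796634, minus strand): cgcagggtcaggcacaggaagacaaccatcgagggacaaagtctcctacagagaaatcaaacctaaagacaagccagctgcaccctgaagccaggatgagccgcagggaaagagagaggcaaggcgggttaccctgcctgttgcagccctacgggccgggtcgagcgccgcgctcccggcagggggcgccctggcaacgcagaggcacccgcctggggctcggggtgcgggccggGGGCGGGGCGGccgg
Ibsp (chr5:104299037-104299286, plus strand): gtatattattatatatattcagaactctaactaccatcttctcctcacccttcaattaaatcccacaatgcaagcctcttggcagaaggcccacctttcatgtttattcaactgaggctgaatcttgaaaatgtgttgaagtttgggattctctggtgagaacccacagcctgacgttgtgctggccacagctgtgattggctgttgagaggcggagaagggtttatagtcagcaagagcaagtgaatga
Enpp1 (chr10:24712160-24712409, minus strand): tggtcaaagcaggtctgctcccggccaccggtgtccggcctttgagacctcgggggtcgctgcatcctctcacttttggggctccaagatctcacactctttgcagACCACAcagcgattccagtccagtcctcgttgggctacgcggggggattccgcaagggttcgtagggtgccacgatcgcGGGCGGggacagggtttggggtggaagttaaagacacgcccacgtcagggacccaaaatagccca
Spp1 (chr5:104434861-104435110, plus strand): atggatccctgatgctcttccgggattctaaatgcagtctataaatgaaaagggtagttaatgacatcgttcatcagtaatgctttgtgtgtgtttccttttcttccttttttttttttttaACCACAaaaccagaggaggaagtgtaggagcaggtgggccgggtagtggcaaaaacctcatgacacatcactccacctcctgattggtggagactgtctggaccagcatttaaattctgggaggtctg
Alpl carried 2 matches to GGGCGG, which share a base, in the last 15 bases before its start and was 68.4% G and C. Enpp1 carried 1 match to ACCACA, beginning 144 bases before its start, and 1 to GGGCGG. The Spp1 window held 1 ACCACA, beginning 128 bases before its start, and the Ibsp window held none of the 4 motifs. Of 27025 windows of this length, 14.2% held ACCACA, 4.91% TAATTA, 6.85% TGANTCA and 33% GGGCGG. Promoter entries matched 7 of the 10 members by symbol. Among the other 3 matched members, Col10a1 held 1 TAATTA, Bglap 1 ACCACA, and Phospho1 1 TGANTCA and 3 GGGCGG. A match is a description of these letters and not a binding site.

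In control cells the members spanned levels from the most abundant messages of the cell to barely detected ones. Spp1, which encodes osteopontin, an acidic phosphoprotein that binds integrins and mineral, stood at 5285 and 4865 TPM, the 9th highest gene in both control libraries. Mgp, the matrix Gla protein, a vitamin K-dependent inhibitor of cartilage calcification in mice, followed at 3000 and 3266 TPM. Ibsp, bone sialoprotein, a matrix protein that can nucleate mineral, was at 361 and 234 TPM. Alpl, the tissue-nonspecific alkaline phosphatase, was at 51.4 and 54.4 TPM, Enpp1 at 39 and 35.7 TPM and Panx3, a membrane channel for ATP and calcium, at 29.8 and 31.7 TPM. Each of these 6 genes was separated from its neighbours in the order by more than the gap between the 2 control libraries.

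At the lower end the order was closer. Col10a1, the collagen X chain that defines hypertrophic chondrocytes, was at 14.3 and 17.6 TPM, and Phospho1 at 13.5 and 12.5 TPM. Sp7, or osterix, a zinc finger transcription factor of osteoblasts and hypertrophic chondrocytes, was at 8.47 and 11.7 TPM. The steps between these 3 genes were smaller than the gap between the control libraries for Col10a1 or Sp7. Bglap, which encodes osteocalcin, the vitamin K-dependent protein of mature osteoblasts, was at 3.36 and 1.13 TPM, from only 6.46 and 2.16 estimated counts. The level of Col2a1, the main cartilage collagen, was 1445 and 1103 times that of Col10a1 in the 2 control libraries. The collagen X and osteocalcin messages were thus low in these cells, and osteopontin and matrix Gla protein were abundant.

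**Figure D1:**
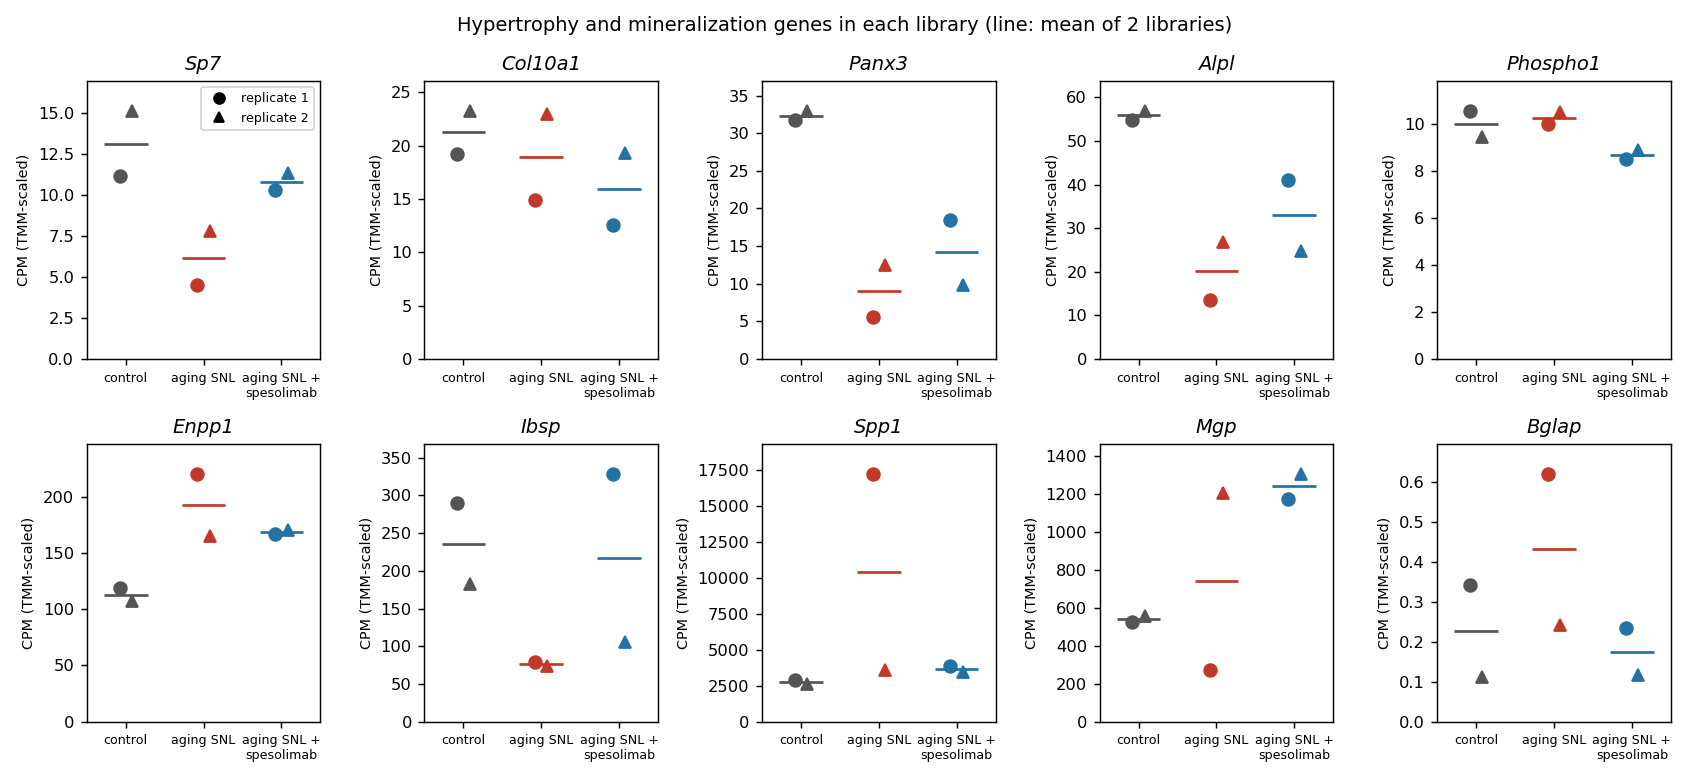
Level of each of the 10 genes in CPM (linear axis from 0) in the 6 libraries, by group, with circles for replicate 1, triangles for replicate 2 and a line at the mean of 2. Panx3, Alpl, Ibsp and Sp7 lie below control in both aging SNL libraries, Enpp1 and Spp1 above it, and Spp1 reaches 17283 CPM in aging SNL replicate 1.

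The first comparison set aging SNL against control, to see what the condition changed in chondrocytes. Panx3, Alpl, Ibsp and Sp7 were 2.12 to 3.58 times lower on average in aging SNL, with both aging SNL libraries below both controls. Enpp1 was 1.71 times and Spp1 3.78 times higher, with both libraries above both controls, and Col10a1, Phospho1 and Mgp overlapped control. None of these differences was called in the 6 libraries by edgeR's quasi-likelihood test, in which 0 of the 9 members tested and 0% of 13399 genes had an adjusted p under 0.05. At an unadjusted p under 0.05 there were 6 of the 9, against 12.6% of all genes tested. The members were chosen with earlier results of these data known, so such counts describe them and do not test the set. Groups that did not overlap were common: 21.1% of all genes were lower and 20.9% higher in both aging SNL libraries than in both controls, against 4 and 2 of the 9 members. DESeq2 called 3 members and 3.32% of all genes: Panx3 and Alpl lower (adjusted p = 0.00638 and 0.0137; 1.63% of all genes called lower) and Enpp1 higher (adjusted p = 0.00839; 1.69% called higher).

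Of the transcription factor and the collagen of hypertrophy, Sp7 lay below control in both aging SNL libraries and Col10a1 in replicate 1 alone. Sp7 stood at 11.1 and 15.1 CPM in the controls and at 4.53 and 7.83 CPM in the aging SNL pair. Its log2 fold change was -1.09 ± 0.30 (SE; edgeR adjusted p = 0.296), and -0.75 ± 0.22 with only replicate 2 in the aging SNL group (edgeR adjusted p = 0.128). Col10a1 stood at 19.3 and 23.3 CPM in the controls and at 14.9 and 23 CPM in the aging SNL pair, so that replicate 1 was below both controls and replicate 2 between them. The log2 fold change of Col10a1 was -0.17 ± 0.30 (edgeR adjusted p = 0.846).

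Panx3, which in mice promotes chondrocyte and osteoblast differentiation, had the lowest log2 fold change of the members over the 6 libraries, though not with replicate 2 alone, where Ibsp was lower. It stood at 31.7 and 33 CPM in the controls and at 5.59 and 12.5 CPM in the aging SNL pair. The higher aging SNL value was 39.3% of the lower control value. The log2 fold change of Panx3 was -1.84 ± 0.45 (edgeR adjusted p = 0.253), and 56 of 13399 genes had a lower one. With only replicate 2 in the aging SNL group it was -1.37 ± 0.32 (adjusted p = 0.0736), and with only replicate 1 it was -2.53 ± 0.37 (adjusted p = 0.00443).

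The enzymes of pyrophosphate lay on opposite sides of control. Alpl stood at 54.9 and 56.9 CPM in the controls and at 13.5 and 26.8 CPM in the aging SNL pair, a log2 fold change of -1.47 ± 0.38 (edgeR adjusted p = 0.269). Enpp1 stood at 119 and 107 CPM in the controls and at 221 and 165 CPM in the aging SNL pair, a log2 fold change of 0.77 ± 0.16 (edgeR adjusted p = 0.208). Neither gene overlapped between the groups, and in both the larger distance from control was in replicate 1. In the fits with 1 aging SNL library, which share the controls, Enpp1 was called higher by 0.55 ± 0.10 with replicate 2 (edgeR adjusted p = 0.0427) and by 0.96 ± 0.10 with replicate 1 (adjusted p = 0.0013). Alpl was called lower with replicate 1 alone (-2.05 ± 0.29, adjusted p = 0.0043) and not with replicate 2 alone (-1.06 ± 0.27, adjusted p = 0.0869). Phospho1 stood at 10.6 and 9.48 CPM in the controls and at 10 and 10.5 CPM in the aging SNL pair, a log2 fold change of 0.04 ± 0.14 (adjusted p = 0.935). Its estimated counts were not whole numbers.

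Set against each other within a library, the level of Alpl in TPM was 1.32 and 1.52 times that of Enpp1 in control. In aging SNL the ratio was 0.173 and 0.466, and with spesolimab it was 0.711 and 0.417. Alpl was thus the more abundant message of the pair in the 2 control libraries and Enpp1 in the other 4.

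**Figure D2:**
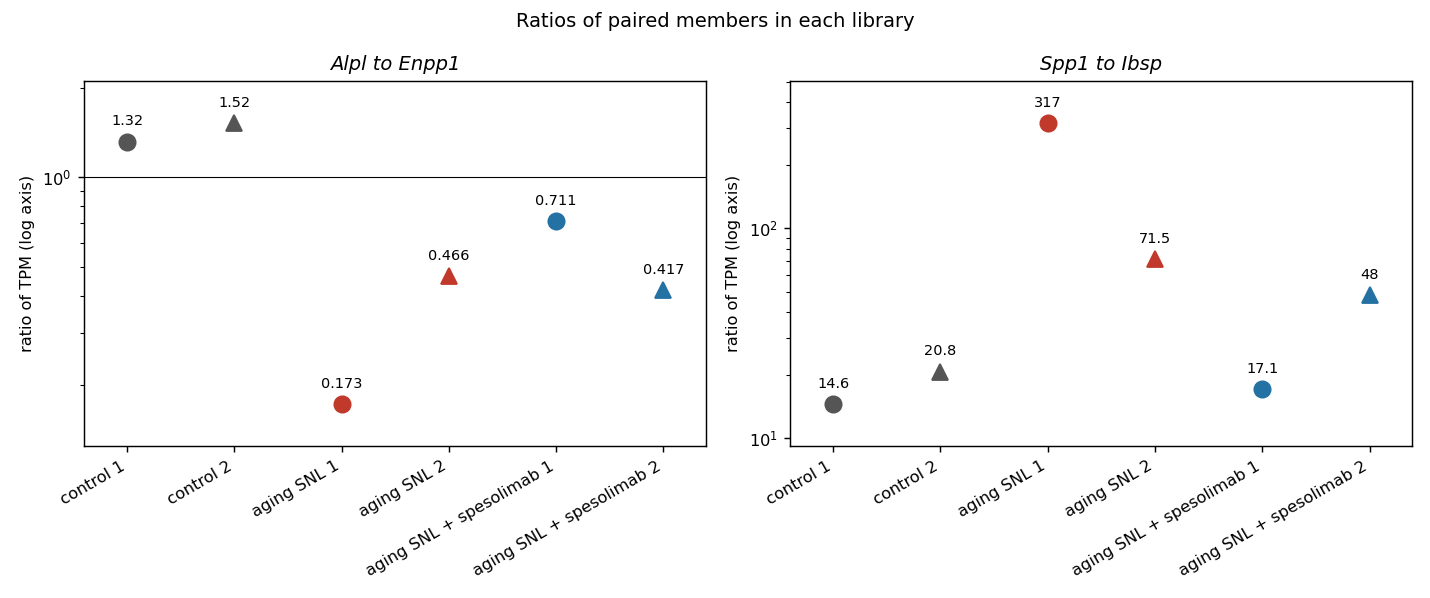
Ratio of TPM in each library on log axes, Alpl to Enpp1 (left) and Spp1 to Ibsp (right), with circles for replicate 1 and triangles for replicate 2. Alpl to Enpp1 is above 1 in the 2 control libraries and below 1 in the other 4, and Spp1 to Ibsp is highest, at 317, in aging SNL replicate 1.

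The 2 matrix phosphoproteins, which share an integrin-binding function, lay on opposite sides of control. Ibsp stood at 289 and 183 CPM in the controls and at 78.9 and 73.7 CPM in the aging SNL pair. The aging SNL libraries were close to each other and both under the lower control, while the controls were 1.58 times apart. Its log2 fold change was -1.63 ± 0.55 (edgeR adjusted p = 0.351), and it changed little with the aging SNL library kept, at -1.68 ± 0.64 with replicate 2 (adjusted p = 0.211) and -1.58 ± 0.64 with replicate 1 (adjusted p = 0.115). Spp1 stood at 2915 and 2625 CPM in the controls, 17283 CPM in replicate 1 of aging SNL and 3635 CPM in replicate 2. In replicate 1 it took 1.67% of all counts, against 0.274% to 0.384% in the other 5 libraries. The log2 fold change of Spp1 was 1.92 ± 0.71 over all 6 libraries (edgeR adjusted p = 0.371), 2.64 ± 0.15 with replicate 1 alone (adjusted p = 0.000209) and 0.39 ± 0.14 with replicate 2 alone (adjusted p = 0.199). The level of Spp1 in TPM was 14.6 and 20.8 times that of Ibsp in control and 317 and 71.5 times in aging SNL.

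Of the vitamin K-dependent proteins, Mgp went in opposite directions in the 2 aging SNL libraries. It stood at 523 and 554 CPM in the controls, 274 CPM in replicate 1 of aging SNL and 1205 CPM in replicate 2. Its log2 fold change was 0.46 ± 0.64 over all 6 libraries (edgeR adjusted p = 0.798). With replicate 2 alone Mgp was called higher, by 1.16 ± 0.12 (edgeR adjusted p = 0.0115), and with replicate 1 alone lower, at -0.98 ± 0.13 (adjusted p = 0.00305). The summed chondrocyte markers also differed between these libraries, at 5019 and 30789 TPM, and their part in the Mgp values was not tested. Bglap was too low to pass the filter on counts in the 6 libraries, with 6.46 and 2.16 estimated counts in the controls and 10 and 3.65 in the aging SNL pair. Its reads cannot be told apart cleanly from those of its near-identical neighbours Bglap2 and Bglap3, and the 3 genes together had 14 and 17 counts in the controls, 17 and 12 in the aging SNL pair and 15 and 7 with spesolimab.

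With only replicate 2 in the aging SNL group edgeR thus called 2 of 9 members higher (Enpp1 and Mgp; 1.81% of all genes) and 0 lower (1.61% of all genes), and 7 of 9 members and 20.3% of all genes had an unadjusted p under 0.05. With only replicate 1 it called 2 of 10 higher (Enpp1 and Spp1; 13.4% of all genes) and 4 lower (Sp7, Panx3, Alpl and Mgp; 12.3% of all genes). In these fits the single aging SNL library is assumed to vary like the other groups. The aging SNL pair did not: 11.2% of genes were over 2-fold apart within it, against 0.978% in control and 1.31% with spesolimab. The calls of these fits therefore rest on a smaller spread than that of the pair. The 2 fits share both control and both spesolimab libraries.

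**Figure D3:**
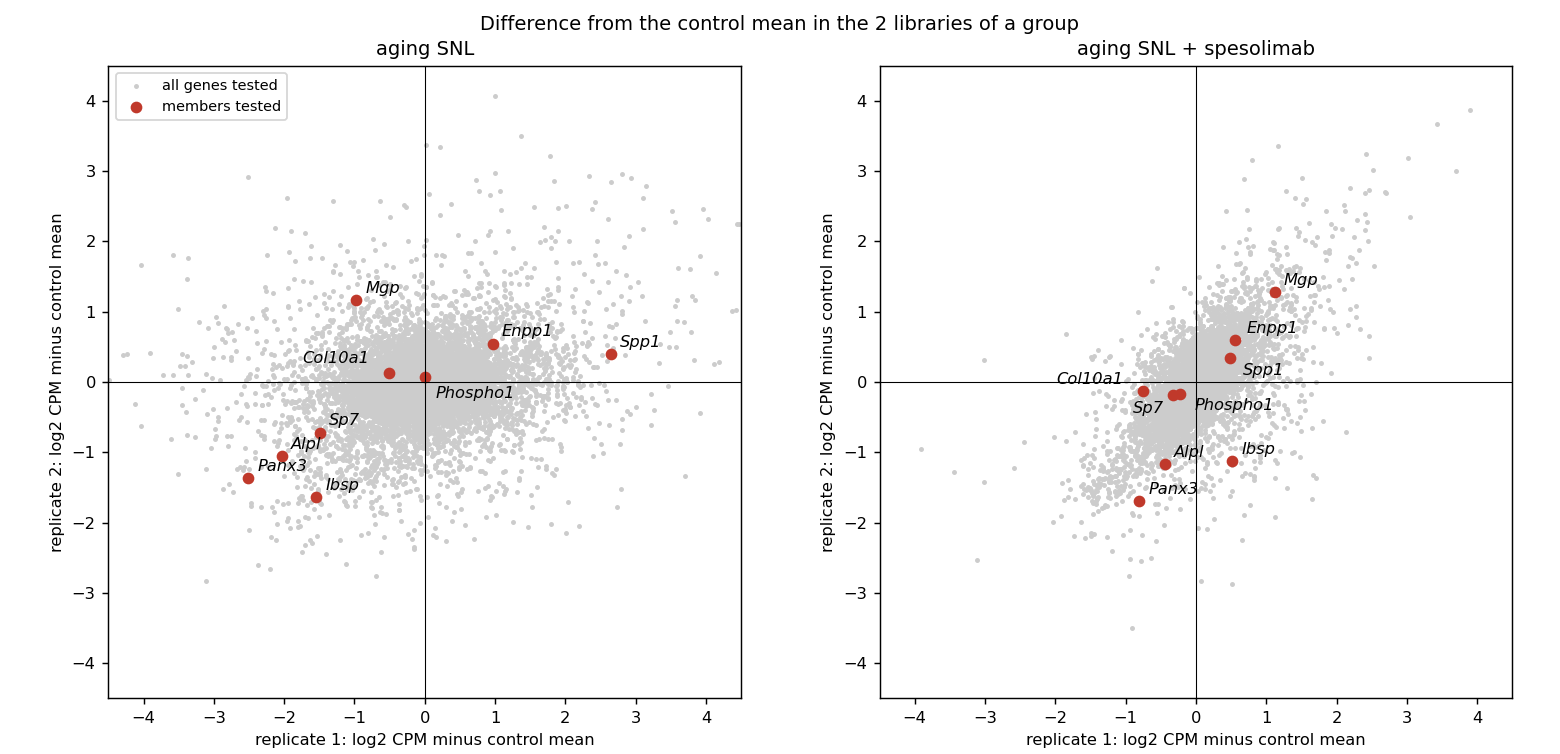
Difference in log2 CPM from the control mean in replicate 1 (x axis) and replicate 2 (y axis) of aging SNL (left) and of aging SNL with spesolimab (right), with grey points for all genes tested and red points for the 9 members tested. In aging SNL, Panx3, Alpl, Ibsp and Sp7 lie at lower left, Enpp1 and Spp1 at upper right and Mgp at upper left, and 18 genes in the left panel and 1 in the right lie beyond the axes.

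Cells with spesolimab were compared with aging SNL cells to ask what the antibody changed. Sp7 and Ibsp were higher in both spesolimab libraries than in both aging SNL libraries, by 1.75 and 2.84 times on average, and Phospho1 was lower. The other 6 members tested overlapped. EdgeR called 0 of the 9 members and 0% of all genes, 2 members (Sp7 and Ibsp) and 2.93% of all genes had an unadjusted p under 0.05, and DESeq2 called 0 members and 0.0224% of all genes. Non-overlapping groups took in 13.5% of all genes in the higher direction and 13.4% in the lower, against 2 and 1 of the 9 members.

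Sp7 stood at 10.3 and 11.4 CPM with spesolimab, against 4.53 and 7.83 CPM in the aging SNL pair, a log2 fold change of 0.81 ± 0.30 (edgeR adjusted p = 0.956). Both spesolimab values were near the lower control value of 11.1 CPM. Ibsp stood at 329 and 105 CPM with spesolimab, against 78.9 and 73.7 CPM, a log2 fold change of 1.51 ± 0.55 (adjusted p = 0.956). The spesolimab libraries were 3.12 times apart for Ibsp, replicate 1 above both controls and replicate 2 below both. Macrophage markers were split in the same way, at a summed 310 TPM in spesolimab replicate 1 and 74.8 TPM in replicate 2, and at 246 and 55.4 TPM in control, where Ibsp also stood higher in replicate 1. Their part in the Ibsp values was not tested. In aging SNL the macrophage sum was 232 and 81.3 TPM while Ibsp was nearly equal.

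Alpl stood at 41.1 and 24.8 CPM and Panx3 at 18.5 and 9.89 CPM with spesolimab. For each gene replicate 1 lay between the aging SNL and control values, and replicate 2 lay within the aging SNL range. Their log2 fold changes against aging SNL were 0.71 ± 0.38 and 0.65 ± 0.45 (edgeR adjusted p = 0.956 for both). Phospho1 stood at 8.53 and 8.89 CPM, a log2 fold change of -0.24 ± 0.14 (edgeR adjusted p = 0.956).

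The contrast of Spp1, Enpp1 and Mgp with aging SNL depended on which aging SNL library it was drawn against. Spp1 stood at 3866 and 3487 CPM with spesolimab, Enpp1 at 166 and 170 CPM, and Mgp at 1173 and 1305 CPM. These are close to aging SNL replicate 2, which had 3635 CPM of Spp1, 165 CPM of Enpp1 and 1205 CPM of Mgp, and far from replicate 1. With replicate 1 alone in the aging SNL group, 6 of 10 members were called: Sp7 (1.26 ± 0.25, edgeR adjusted p = 0.0161), Panx3, Alpl and Mgp (2.18 ± 0.14, adjusted p = 0.000373) higher and Spp1 (-2.23 ± 0.15, adjusted p = 0.000437) and Enpp1 lower. In that fit 9.59% of all genes were called higher and 10.9% lower. With replicate 2 alone edgeR called 0 members and 0% of all genes, and the log2 fold changes of Spp1, Enpp1 and Mgp were 0.02 ± 0.15, 0.03 ± 0.10 and 0.04 ± 0.12. At an unadjusted p under 0.05 that fit held 1 member, Ibsp, and 6.22% of all genes.

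Spesolimab cells were also set against control cells. These values share the control libraries with the first comparison and the spesolimab libraries with the second, and are given beside them, not as separate support. Mgp was 2.3 times, Enpp1 1.49 times and Spp1 1.33 times higher than in control, with both spesolimab libraries above both controls. Panx3, Alpl and Phospho1 were 2.28, 1.69 and 1.15 times lower, without overlap, and Sp7, Col10a1 and Ibsp overlapped. Groups did not overlap for 23.8% of all genes in the higher and 24.6% in the lower direction, against 3 and 3 of the 9 members. In the 6 libraries edgeR called 0 of the 9 members and 0% of all genes. At an unadjusted p under 0.05 were 2 members (Panx3 and Enpp1) and 6.17% of all genes. DESeq2 called 0 members and 1.19% of all genes.

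When the 4 libraries of these 2 groups were fitted alone, without the wide spread of the aging SNL pair, edgeR called Mgp and Enpp1 higher (1.51% of all genes called higher) and 0 members lower (1.37%). Mgp rose by 1.20 ± 0.10 on the log2 scale (edgeR adjusted p = 0.00687) and Enpp1 by 0.58 ± 0.08 (adjusted p = 0.0248) in that fit. The values in the 6 libraries were 1.20 ± 0.65 (adjusted p = 0.942) and 0.58 ± 0.16 (adjusted p = 0.591). Panx3 was at -1.19 ± 0.25 (adjusted p = 0.0632), Spp1 at 0.41 ± 0.12 (adjusted p = 0.151) and Alpl at -0.76 ± 0.21 (adjusted p = 0.125) in the 4 libraries. Ibsp was at -0.12 ± 0.48 (adjusted p = 0.936) there, and its direction turned when 1 of 2 libraries was left out. In the fits to all groups the log2 fold change was 0.48 ± 0.31 without spesolimab replicate 2 and 0.25 ± 0.69 without control replicate 1 (edgeR adjusted p = 1 for both).

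Col10a1 stood at 12.6 and 19.4 CPM with spesolimab, the higher of which reached the lower control value of 19.3 CPM. Its log2 fold change against control was -0.41 ± 0.21 in the 4 libraries (edgeR adjusted p = 0.381). Bglap had 4.3 and 2.33 estimated counts with spesolimab, within the range of the control libraries.

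The other genes of the pathway were taken from 6 lists that held 62 genes with values, of which 54 were tested. In aging SNL against control 26 were higher and 28 lower, 0 were called by edgeR in the 6 libraries and the median log2 fold change was -0.02, against 0.01 over all genes tested. DESeq2 called 2 of the 54 higher and 3 lower, against 1.69% and 1.63% of all genes. With only replicate 2 in the aging SNL group edgeR called 3 higher and 1 lower of 55 tested, against 1.81% and 1.61% of all genes. With only replicate 1 it called 8 higher and 20 lower, against 13.4% and 12.3% of all genes.

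Of the transcription factors and repressors of hypertrophy, 5 of 11 tested were higher and 6 lower. Runx2, a master regulator of hypertrophy and bone, stood at 44.6 and 44.3 CPM in the controls, 46.5 and 41.3 CPM in the aging SNL pair and 41.2 and 46.9 CPM with spesolimab, so that the groups overlapped throughout. Mef2c, which drives Col10a1 in mice, was at 31.7 and 27.4 CPM in the controls and 24.3 and 28 CPM in the aging SNL pair, and at 28.9 and 26.9 CPM with spesolimab. Runx3 was at 5.89 and 8.91 CPM in the controls, 5.16 and 10.2 CPM in the aging SNL pair and 5.55 and 10 CPM with spesolimab, higher in replicate 2 of each group. Dlx5, a homeodomain factor, was at 4.17 and 3.98 CPM in the controls, 2.17 and 3.43 CPM in the aging SNL pair and 2.51 and 2.88 CPM with spesolimab. Twist1, a basic helix-loop-helix factor that holds back Runx2, was lower in both aging SNL libraries, at 54.5 and 49.1 CPM against 35.4 and 34.8 CPM. Its log2 fold change was -0.56 ± 0.10 with all 6 libraries (edgeR adjusted p = 0.174), and with 1 aging SNL library in fits that share the controls its adjusted p was 0.0442 with replicate 2 and 0.0126 with replicate 1, lower in both. With spesolimab Twist1 stood at 47.2 and 44.8 CPM.

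Among genes of pyrophosphate and phosphate transport, 7 of 10 tested were higher in aging SNL and 3 lower. Nt5e, which turns AMP into adenosine and phosphate downstream of Enpp1, was at 177 and 208 CPM in the controls, 525 and 381 CPM in the aging SNL pair and 285 and 461 CPM with spesolimab. The log2 fold change of Nt5e was 1.23 ± 0.28 in aging SNL against control (edgeR adjusted p = 0.233) and 0.95 ± 0.28 in spesolimab against control (adjusted p = 0.612). Ank, the transporter linked to pyrophosphate export, was at 54.5 and 51 CPM in the controls, 50.1 and 80.8 CPM in the aging SNL pair and 66.8 and 75.5 CPM with spesolimab. With only replicate 2 in the aging SNL group Ank was called higher, by 0.62 ± 0.10 (adjusted p = 0.0349). The phosphate transporter gene Slc20a1 was at 86.6 and 94.2 CPM in the controls, 93 and 120 CPM in the aging SNL pair and 108 and 103 CPM with spesolimab. Abcc1, an export pump, was at 117 and 124 CPM in the controls, 221 and 104 CPM in the aging SNL pair and 100 and 114 CPM with spesolimab.

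Of the annexins and channels, 3 of 6 were higher in aging SNL and 3 lower. Anxa6, an annexin found in matrix vesicles, was at 206 and 190 CPM in the controls, 143 and 168 CPM in the aging SNL pair and 193 and 176 CPM with spesolimab. Panx1, a relative of Panx3, was at 4.34 and 3.42 CPM in the controls, 3.42 and 4.1 CPM in the aging SNL pair and 3.04 and 3 CPM with spesolimab.

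Late hypertrophic and bone matrix genes were split, with 4 of 8 tested higher in aging SNL and 4 lower. The 4 lower, named here after their values were seen, were Col1a1, Phex, Smoc1 and Omd. Their log2 distances from the control mean in aging SNL replicates 1 and 2 were -0.92 and -0.57 (Col1a1) and -1.70 and -0.83 (Phex). For Smoc1 they were -1.22 and -0.48, and for Omd -3.16 and -0.12. The controls of Omd lay at 0.36 and -0.36, so that its aging SNL replicate 2 was between them. Mmp9, also named after its values were seen, was higher, at 3.58 and 0.50 in aging SNL replicates 1 and 2. Its control mean was low, at 0.652 CPM. Vegfa, an angiogenic factor of hypertrophic cartilage, was at 200 and 223 CPM in the controls, 379 and 287 CPM in the aging SNL pair and 235 and 231 CPM with spesolimab, and the aging SNL value against control on the log2 scale was 0.66 ± 0.16 (edgeR adjusted p = 0.25). Mmp13, the main collagenase of hypertrophic cartilage, was at 2114 and 2530 CPM in the controls, 7022 and 2922 CPM in the aging SNL pair and 2744 and 2861 CPM with spesolimab. Sparc, a collagen-binding protein of bone, was at 7547 and 6546 CPM in the controls, 6750 and 9806 CPM in the aging SNL pair and 8697 and 9475 CPM with spesolimab.

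Of the mineralization inhibitors and vitamin K genes 3 of 7 tested were higher in aging SNL and 4 lower, and 4 of the 7 (Ucma, Ggcx, Vkorc1 and Sparcl1) were, like Mgp, below both controls in aging SNL replicate 1 and above both in replicate 2. So were 15 of all 54 pathway genes, 8 of the 10 chondrocyte markers, among them Acan and Sox9, and 15.1% of all genes tested. Ucma, a Gla-rich protein of cartilage and like Mgp a substrate of vitamin K-dependent carboxylation, was at 592 and 450 CPM in the controls, 106 CPM in replicate 1 of aging SNL and 1003 CPM in replicate 2, and 986 and 968 CPM with spesolimab. With replicate 2 alone Ucma was called higher, by 0.95 ± 0.17 (edgeR adjusted p = 0.0375), with replicate 1 alone lower, at -2.3 ± 0.19 (adjusted p = 0.000656), and in spesolimab against control in the 4 libraries it rose by 0.91 ± 0.14 (adjusted p = 0.0288). Vkorc1, the vitamin K reductase that recycles the cofactor of this carboxylation, named here after its values were seen, was at 92.1 and 94 CPM in the controls, 57.5 and 130 CPM in the aging SNL pair and 108 and 117 CPM with spesolimab. Tnfrsf11b, or osteoprotegerin, an inhibitor of osteoclast formation, was lower in both aging SNL libraries, at 110 and 109 CPM in the controls, 61.9 and 79.5 CPM in the aging SNL pair and 89.8 and 82.8 CPM with spesolimab. The log2 fold change of Tnfrsf11b in aging SNL was -0.63 ± 0.14 (adjusted p = 0.216).

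Of the upstream signals, 4 of 12 tested were higher in aging SNL and 8 lower. Bmp4, a bone morphogenetic protein, was at 128 and 88.9 CPM in the controls, 36.7 and 72.3 CPM in the aging SNL pair and 86.6 and 105 CPM with spesolimab. Smad9, a transducer of that signal, was at 18.9 and 18.3 CPM in the controls, 12.9 and 14.3 CPM in the aging SNL pair and 17 and 15.1 CPM with spesolimab, and the aging SNL value against control on the log2 scale was -0.45 ± 0.13 (edgeR adjusted p = 0.297). Pthlh, which encodes PTHrP, the signal that delays hypertrophy, was near the floor, at 0 and 0.168 CPM in the controls, 0.248 and 1.33 CPM in the aging SNL pair and 0.175 and 1.24 CPM with spesolimab. Ihh, of the same list and named here after its values were seen, was also low. Its mean was 0.933 CPM in control, 0.212 CPM in aging SNL and 0.674 CPM with spesolimab. Both aging SNL libraries lay below both controls for Ihh.

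Over these 54 genes, 33 were higher and 21 lower in spesolimab against aging SNL, with a median log2 fold change of 0.08 against -0.01 over all genes tested. In spesolimab against control 29 were higher and 25 lower, with a median of 0.05 against 0.00. EdgeR called 0 of the 54 in either comparison in the 6 libraries, and 1, Ucma, in the 4 libraries of spesolimab and control.

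**Figure D4:**
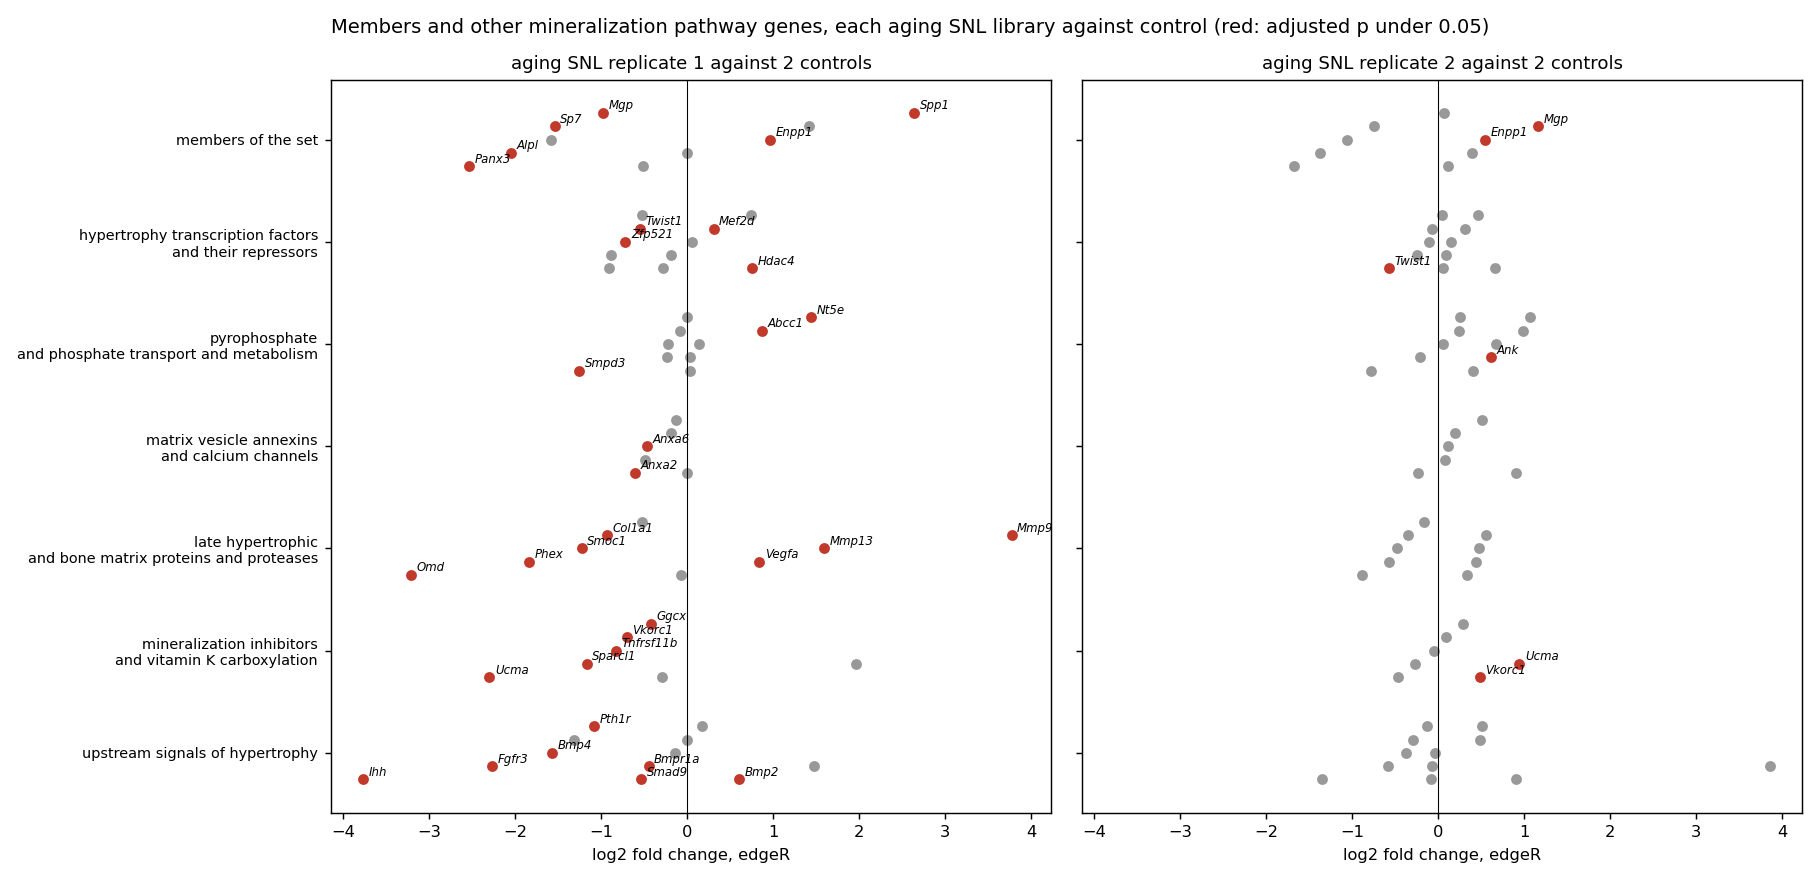
Log2 fold change (x axis, edgeR) of the members tested and of the genes of the 6 pathway lists for aging SNL replicate 1 (left) and replicate 2 (right) against the 2 controls, with called genes in red and named. Both panels share the control libraries, and Mgp and Ucma are called lower in the left panel and higher in the right.

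Markers of other cells were read beside the members, since osteoblasts make Alpl, Ibsp, Sp7 and Bglap, and macrophages and osteoclasts make Spp1. Of the osteoblast and osteocyte markers, 9 of 10 had values and 5 were tested, all of them lower in aging SNL. EdgeR called none of the 5 in the 6 libraries, and DESeq2 called Col1a1 lower (adjusted p = 0.0187). Their summed level, most of it Col1a1, was 2876 and 2410 TPM in control, 1011 and 1716 TPM in aging SNL and 2360 and 1977 TPM with spesolimab. By mean CPM this order of the groups was also that of Sp7, Alpl, Ibsp and Panx3, and the share of all genes in this order was not counted. The part of such cells in the lower Sp7, Alpl and Ibsp values was not tested. The osteocyte marker Mepe was at 0 counts in 5 of the 6 libraries, and Bglap3 in 2. The osteoclast list summed to 199 and 188 TPM in control, 232 and 205 TPM in aging SNL and 251 and 192 TPM with spesolimab, with Dcstamp and Calcr each at 0 counts in 5 libraries. Fibroblast markers summed to 8735 TPM in aging SNL replicate 1 and 4655 to 6916 TPM in the others, and endothelial and mural markers to 79.6 TPM there and 158 to 201 TPM in the others. The macrophage markers, whose sum is mostly Lyz2, summed to 232 TPM in aging SNL replicate 1 and 55.4 to 310 TPM in the others. In aging SNL replicate 1, Spp1 was 4.47 times its next highest library. Also at their highest there were 2 of 10 macrophage markers (Cd68 and Cd14) and 5 of 8 osteoclast markers (Acp5, Ctsk, Calcr, Oscar and Atp6v0d2). So were 5 of 8 fibroblast markers and 1 of 10 chondrocyte markers, but 0 of the osteoblast, endothelial and mural markers. Calcr and Oscar were near the floor, with aging SNL means of 0.311 and 0.217 CPM. The share of all genes highest in this library was not counted, and the library lay apart from the others on the first principal component. These counts therefore do not single out any cell type. In that library Cd68 stood at 17.4 CPM and Cd14 at 20.3 CPM. On the log2 scale Lyz2 was 1.33 above the control mean there, and 1.65 above it in spesolimab replicate 1. In aging SNL replicate 1 the macrophage markers ran from -0.67 (Ptprc) and -0.05 (Csf1r) to 2.31 (Cd14) against the control mean. The osteoclast markers tested ran from 0.20 (Itgb3) to 1.88 (Atp6v0d2) in the same library, with Ctsk at 0.64. With this library alone in the aging SNL group, 6 of 10 macrophage, 4 of 4 osteoclast and 6 of 8 fibroblast markers were higher. So were 6705 of 13727 genes tested. The part of any of these cells in the Spp1 values was not tested. The chondrocyte marker sum, most of it Col2a1, was 30789 TPM in aging SNL replicate 2 and 28973 and 28204 TPM in the controls. Panx3, Alpl, Ibsp and Sp7 were below both controls in that library. The part of chondrocyte content in their values was not tested.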

How the data were processed

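RNA-seq was made from 6 libraries of mouse primary articular chondrocytes, in 3 groups of 2 by title. Oligo(dT) capture and DNA nanoball sequencing were used, per the labels' protocols. The authors deposited 1 table with expected counts, unscaled, of which 12.3% were not whole numbers, and TPM, scaled by the authors for length and library, per the file headers. The submitters' processing notes name GRCm39, RSEM 1.3.1, Bowtie2 2.3.4.3 and DESeq2 1.4.5. Roles, annotation and strandedness are not given in the sources used here. The other 15 value columns (FPKM and averages) were not used. Of 22173 genes, 4984 had empty cells.

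Expected counts were rounded and entered edgeR 4.0.16 (R 4.3.3; filterByExpr with minimum count 10 and minimum total 15, TMM, 1 mean per group, 6 libraries, 3 residual degrees of freedom). P-values were adjusted by Benjamini-Hochberg over all 13399 genes tested, with a threshold of 0.05. Standard errors were taken as log2 fold change over the root of F. Log2 CPM in the plots used a prior count of 2. DESeq2 1.42.0, limma 3.58.1 on log2(TPM + 1), size factors by relative log expression, no count filter, the 4 libraries compared, a replicate block and each library left out were the alternatives. The tests were also run on simulated data in which all groups varied alike. The aging SNL pair varied more than the other groups, so that run does not show how the tests behave on these libraries. Replicates differed by more than counting noise (chi-square per degree of freedom 13.6 in control, 238 in aging SNL and 17.6 with spesolimab).

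The members and lists were chosen with earlier results of these data known. All members were named. From each pathway list the gene of lowest p in each comparison was named, with Runx2, Runx3, Mef2c, Dlx5, Vegfa, Mmp13, Ank, Slc20a1 and Ucma. Others, such as Vkorc1, Col1a1, Phex, Smoc1 and Omd, were named after their values were seen. Promoter sequences are RefSeq's for GRCm38.p6.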

Additional observations from a re-analysis of the deposited data

How the results depend on the processing

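Each comparison had 0 calls over all genes, 0 among the members and 0 among the other pathway genes in the 6 libraries, and also with size factors by relative log expression, with no filter on low counts, with limma on log2(TPM + 1) and with the replicate block. DESeq2 called 445 genes, 3 members and 5 pathway genes in aging SNL against control, 3 genes in spesolimab against aging SNL and 160 in spesolimab against control. In the 4 libraries of spesolimab and control alone edgeR called 382 genes, 2 members and 1 pathway gene. Leaving out 1 library at a time gave 0 to 3525 genes, 0 to 6 members and 0 to 28 pathway genes in aging SNL against control, 0 to 2810, 0 to 6 and 0 to 25 in spesolimab against aging SNL, and 0 to 385, 0 to 2 and 0 to 1 in spesolimab against control. All calls came without aging SNL replicate 1 or 2, and the cause was not tested. Those fits and the 4-library fit leave out 1 or both libraries of the aging SNL pair, and the biological coefficient of variation was 0.205 in the 6 libraries and 0.0925 without either.

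Over 324 member values under the alternatives, 312 kept their direction and 12 did not. Limma on log2(TPM + 1) gave -0.19 for Phospho1 and -0.16 for Mgp in aging SNL against control. With 1 library left out, values in that comparison ran from -0.52 to 0.11 for Col10a1, from -0.043 to 0.12 for Phospho1 and from -0.98 to 1.16 for Mgp. In spesolimab against aging SNL they ran from -0.59 to 0.10 for Col10a1, from -0.39 to 0.031 for Enpp1 and from -2.23 to 0.016 for Spp1, and in spesolimab against control from -1.16 to 0.48 for Ibsp. Sp7, Panx3, Alpl, Ibsp, Enpp1 and Spp1 kept their direction in aging SNL against control under all 12 alternatives.

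The labels number the replicates 1 and 2 in each group without saying what a number shares. Deviations of same-numbered libraries correlated across genes at 0.25 to 0.42, and with the replicate block, which leaves 2 residual degrees of freedom, 0 genes were called in each comparison. Depth limits Bglap, with 2.16 to 10 counts per library, Pthlh, with 0 to 22 counts, and the pathway genes that did not pass the count filter (54 of 62 passed).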
